A study of Mus musculus with 54 samples.

Results

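The nuclear genes that encode the respiratory chain and the ATP synthase were followed in mouse 3T3-L1 cells, an established fibroblast-like line that becomes fat cells in culture. Members were all probes whose platform gene symbol began with Nduf, Uqcr, Atp5 or Cox4 to Cox8, or was Sdha, Sdhb, Sdhc, Sdhd, Cycs or Cyc1. This rule used names only and matched 83 probes of 72 genes, of 29922 probes and 16637 named genes on the array. Of these 72 genes, 67 were bright enough to be tested, among 12792 tested genes in all. The tested members comprised 31 subunits of complex I, 4 of complex II, 6 of complex III, 12 genes counted with complex IV, 9 subunits of the ATP synthase and 5 other genes that carry a matching name without being subunits. The 12 counted with complex IV include Cox7a2l, a supercomplex factor. The genes Uqcrq, Cox4i2, Cox7b2, Cox8b and Cox8c were too dim to be tested, and Cycs and several other subunits (for example Cox5b, Cox6c and Uqcrb) were not analysed here.

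The series had 3 arms. Untreated control cells underwent normal differentiation, the vehicle arm received 0.5% DMSO, and the third arm received 2 µM prieurianin, a limonoid (a plant triterpenoid). Each arm gave 1 array at each of 18 times from 0 to 288 h, for a total of 54. The labels do not give the differentiation stimulus, nor say whether each time was a separate culture, so different times were used in place of replicates. For comparisons between arms the p-values measure only the spread of a difference between times. For changes over a course they measure the spread of single arrays within a group of times, trends included.

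The respiratory chain passes electrons from NADH (through complex I) and succinate (through complex II) to ubiquinone, then through complex III and cytochrome c to complex IV, which reduces oxygen. Complexes I, III and IV pump protons across the inner mitochondrial membrane, and the ATP synthase, also called complex V, uses the gradient to make ATP. Fat cells that form from preadipocytes are known to build more mitochondria, which supply the carbon and energy for lipid synthesis.

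Values below are quantile normalised probe intensities. Differences are on the log2(intensity + 16) scale, which understates changes of dim probes, with a standard error after ±. A gene is called where its limma adjusted p (Benjamini-Hochberg over all genes tested) is under 0.05. Array medians before normalisation ran from 88 to 313, and 93 to 176 probes per array were saturated, 5 member genes being among them. The prieurianin array at 192 h stood apart from the other late arrays of its arm. Over tested genes it correlated most with untreated cells at 144 h (r = 0.971, a description), more than with prieurianin cells at 144 h (r = 0.955). Late comparisons of that arm were therefore run with and without 192 h. At 0 h, when no treatment time had yet elapsed, 53 of 67 members (79.1%) were already lower on the prieurianin than on the DMSO array, against 53.4% of all genes, with a median difference of -0.10 against -0.02.

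Nuclear respiratory factor 1 is a transcription factor known to bind the promoters of many respiratory genes. Stretches of 40 bases around its motif are shown for the members that were called lower with prieurianin at 96 to 288 h without 192 h and hold a match that lies, with 15 bases on either side, wholly before the RefSeq start site. Capitals mark the match to the motif on either strand, and each sequence is from RefSeq, build GRCm38.p6, minus strand, 5′ to 3′.
Ndufa5, chr6:24527692-24527731: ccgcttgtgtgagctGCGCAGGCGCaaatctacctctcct
Sdha, chr13:74350271-74350310: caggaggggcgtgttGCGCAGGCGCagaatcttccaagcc
Sdhd, chr9:50603904-50603943: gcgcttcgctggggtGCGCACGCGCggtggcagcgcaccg
Cox6a1, chr5:115349051-115349090: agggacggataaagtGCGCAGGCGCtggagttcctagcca
Atp5k, chr5:108434425-108434464: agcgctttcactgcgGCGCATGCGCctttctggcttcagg

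Promoter windows of 300 bases, 250 before and 50 after the start, were found for 59 members, 6 of them with several windows. The nuclear respiratory factor 1 motif was present for 12 of the 59 (20.3%), against 5.19% of 27025 genes with a window. The ETS-type motif CCGGAAG, bound by the GABP factor, was present for 14 (23.7%), against 9.93%. AAGATGGC, a YY1 motif, was found for 9 (15.3%) against 3.19%, 6 of them complex I genes, and AAGGTCA, the site of oestrogen-related receptors, for 7 (11.9%) against 5.38%. Both strands were searched and no overlap between motifs was removed. Among members with a window, the nuclear respiratory factor 1 motif was present for 7 of 20 called lower with prieurianin without 192 h and for 5 of the other 37. For the ETS-type motif these counts were 6 and 8, for the YY1 motif 3 and 6 and for the oestrogen-related receptor site 3 and 4. The counts are a description.

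Over the untreated course more members rose than fell, with differences between complexes. From 0 to 3 h to 96 to 288 h in untreated cells, 24 of 67 members rose and 1 fell, where 17% of all genes rose and 17.3% fell. The median member change was 0.25, against 0.01 over all genes. Under the values as deposited the split was 10 risen and 2 fallen, with a median of 0.10 against -0.16 over all genes. Complex III, which carries electrons from ubiquinone to cytochrome c, had the highest median change (0.62), with 4 of 6 subunits risen. Complex I had 13 risen and 1 fallen of 31 (median 0.27), complex IV 4 risen of 12 (0.22), complex II 0 of 4 (0.20) and the ATP synthase 1 of 9 (0.08).

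Cyc1, the cytochrome c1 subunit of complex III, had untreated intensities with a lowest, median and highest value of 10408, 12160 and 14170 at 0 to 3 h. At 96 to 288 h they were 21048, 25892, 22168, 25187 and 20393, so the groups did not overlap. Cyc1 thus rose 1.88-fold (0.91 ± 0.12, limma adjusted p = 7.55e-08). The Rieske iron-sulphur protein Uqcrfs1 rose 1.79-fold (0.84 ± 0.19, adjusted p = 0.000369), although from 96 to 288 h its own values went from 1166 to 642. Ndufa6, an accessory subunit of complex I, rose 1.94-fold (0.96 ± 0.18, adjusted p = 4.14e-05). Ndufa10, also an accessory subunit, rose 1.57-fold (0.65 ± 0.13, 6.73e-05), and Ndufaf1, a complex I assembly factor, 1.61-fold (0.69 ± 0.12, 1.3e-05). In complex II, the change was 0.19 ± 0.22 for Sdha, 0.06 ± 0.11 for Sdhb, 0.37 ± 0.35 for Sdhc and 0.21 ± 0.11 for Sdhd, none of them called. In the ATP synthase, Atp5d, the delta subunit of the catalytic F1 head, rose 1.40-fold (0.48 ± 0.11, adjusted p = 0.000648), whereas Atp5b, the catalytic beta subunit, did not pass the test (0.25 ± 0.12, adjusted p = 0.101) with 4 of 5 late untreated arrays saturated.

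The exception was Ndufb11, a membrane-arm subunit of complex I. Its untreated intensities were 881, 1075 and 1368 (lowest, median, highest) at 0 to 3 h, and 379, 389, 469, 528 and 489 at the 5 late times. The late values all lay below the early ones. Ndufb11 fell 2.35-fold in untreated cells (-1.23 ± 0.12, limma adjusted p = 1.15e-11), 2.16-fold in DMSO cells (-1.11 ± 0.12, 1.55e-10) and 1.52-fold in prieurianin cells (-0.60 ± 0.12, 6.29e-05).

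DMSO cells followed much the same course. In that arm 20 members rose and 2 fell (all genes 16.5% and 16.1%), with a median of 0.19 against -0.02 over all genes. Under the values as deposited the split was 12 and 4. Complex III had a median of 0.61 with 5 of 6 subunits risen, and Cyc1 rose by 0.61 ± 0.12 (adjusted p = 9.26e-05). No member differed between the DMSO and untreated changes by limma, none had an unadjusted p under 0.05, and 0 of all genes were called.

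The prieurianin course depended on its 192 h array. With all times, 21 members rose and 4 fell (all genes 15.3% and 15%), with a median of 0.16 against 0.03 over all genes. Under median centring the split was 7 and 2, and under the values as deposited it was 5 and 6. Without 192 h, 8 rose and 10 fell (all genes 14.6% and 13.8%), and the median was 0.03 against 0.02. The complex III median was 0.42 with all times and 0.21 without 192 h, when 1 of its 6 subunits, Cyc1 (0.29 ± 0.10, adjusted p = 0.0217), was called. The 10 that fell without 192 h included Ndufab1 (-0.79 ± 0.17, adjusted p = 0.000439), Ndufa4 (-0.60 ± 0.19, 0.0113) and Atp5b (-0.32 ± 0.12, 0.0379).

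Between the prieurianin and DMSO courses, 0 members were called with all times (4 had an unadjusted p under 0.05; all genes 0.266% higher and 0.0704% lower). Without 192 h, 1 was higher (Ndufb11, 0.62 ± 0.17, adjusted p = 0.023) and 7 lower (all genes 1.7% and 2.19%). The 7 were Ndufab1, Cox4nb, Ndufa9, Ndufv1, Ndufs7, Uqcrc2 and Ndufa10, from -1.06 ± 0.24 (Ndufab1, adjusted p = 0.006) to -0.53 ± 0.15 (Ndufa10, 0.034). This comparison takes the early arrays, 0 h included, as its baseline.

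**Figure D1:**
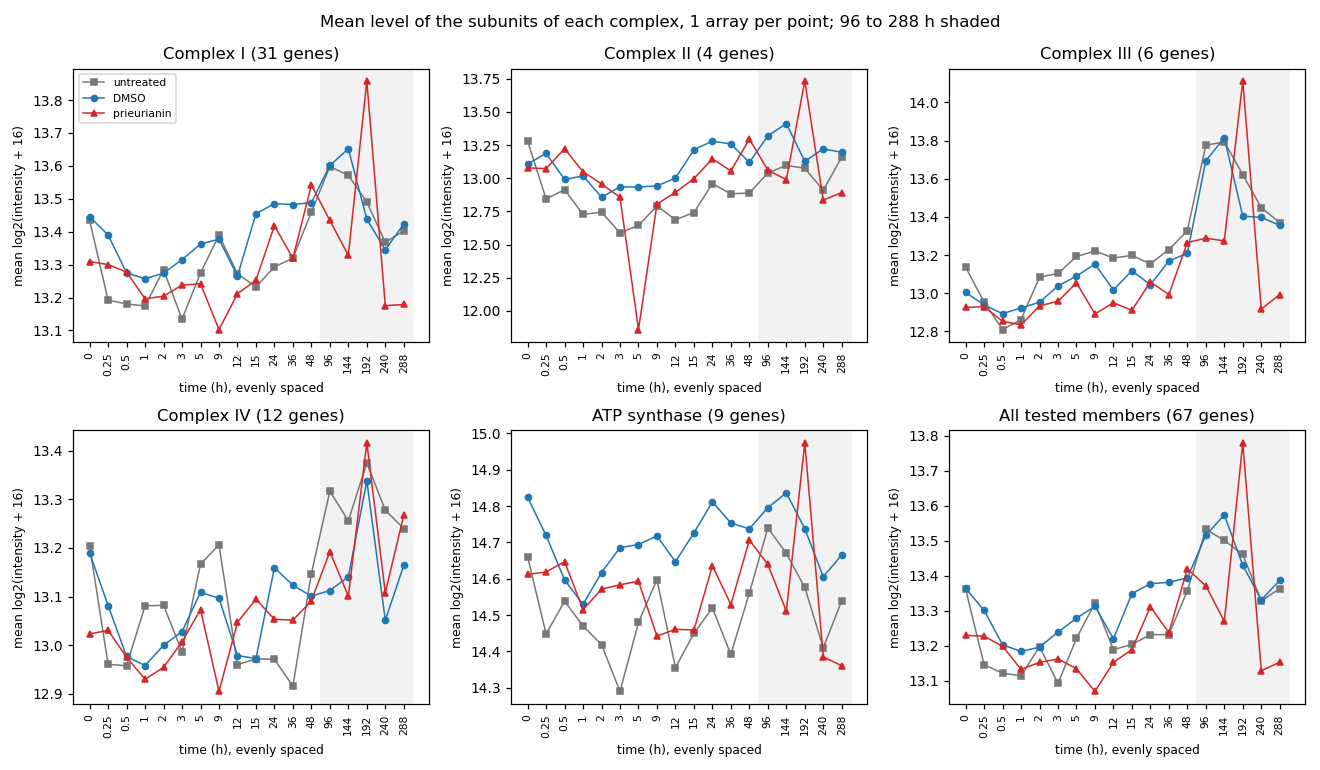
Mean log2(intensity + 16) of the tested subunits of each complex (vertical axes) at 18 times (horizontal axes, evenly spaced, in h) in untreated (grey squares), DMSO (blue circles) and prieurianin cells (red triangles), 1 array per point. Complex III stood at 13.69 and 13.81 at 96 and 144 h in DMSO cells and at 13.29 and 13.27 in prieurianin cells, while the prieurianin array at 192 h (14.11) lay above both other arms.

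In the first hours prieurianin and DMSO cells could not be separated. At 0.25 to 3 h limma called 0 members and 0 of all genes (0%), with 5 members and 300 genes at an unadjusted p under 0.05. The median member difference was -0.05, against -0.01 over all genes, with values from -0.27 to 0.24.

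At 5 to 48 h few members were called, and all of them were lower. By limma 5 of 67 were lower and 0 higher, where 4.51% of all genes were lower and 6.62% higher, and the median was -0.11 against -0.01 over all genes. The 5 were chosen by their values: Atp5j, coupling factor 6 of the ATP synthase stalk (-0.49 ± 0.12, adjusted p = 0.00617), Atp5a1, the F1 alpha subunit (-0.44 ± 0.12, 0.0133), Uqcrc1, a core protein of complex III (-0.41 ± 0.13, 0.0321), and the complex I subunits Ndufb10 (-0.29 ± 0.09, 0.0319) and Ndufa5 (-0.27 ± 0.08, 0.0313). Atp5j intensities had a lowest, median and highest value of 7861, 9531 and 12023 in DMSO cells and 5261, 7102 and 9197 in prieurianin cells. It was lower at 7 of 7 times, although the 2 ranges overlapped. With median centring 0 members were called, and the median was 0.05 (all genes 0.06), and with the values as deposited 1 was called. Without 12 h or 15 h 1 was called in each case, and without 9 h or 36 h 2. Sdhc, the membrane anchor of complex II, had a single low value in this window, 546 in prieurianin cells at 5 h against 9981 in DMSO cells, which its other probe did not share (6666).

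At 96 to 288 h the respiratory genes were mostly lower with prieurianin than with DMSO at 4 of 5 times, and higher at 192 h. Prieurianin was below DMSO for 49 of 67 members (73.1%) at 96 h, for 60 (89.6%) at 144 h, for 46 (68.7%) at 240 h and for 48 (71.6%) at 288 h. At 192 h this held for 8 (11.9%). For all genes these shares lay between 48.2% and 51.6%. Shares of this size also occurred earlier: the share was 79.1% at 0 h and lay between 71.6% and 88.1% at 3, 5, 9, 15 and 36 h. With all 5 times limma called 7 members lower and 2 higher, where 9.36% of all genes were lower and 7.32% higher, with a median of -0.09 against 0.02. Without 192 h it called 25 lower and 3 higher, where 13.9% of all genes were lower and 11.9% higher, with a median of -0.21 against 0.02. Of these 28 members, 12 stayed called under every alternative setting tried without 192 h, at most 4 for each. The calls of Sdhd, Cox4i1, Atp5s, Cox6a2 and Ndufa5 were among those lost under 2 of 4. Without 144 h 4 members were called, without 240 h 3 and without 288 h 1. With all times the split was 1 higher and 2 lower under median centring and 0 and 3 under the values as deposited. Without 192 h it was 1 and 12 under median centring (all genes 4.57% and 9.53%). As deposited it was then 0 and 23 (all genes 5.54% and 14.9%). The member medians there were -0.31 and -0.31, against -0.05 and -0.06 over all genes. White fat cell markers were lower at the same 4 times and not at 192 h, as given with the marker lists, and in bulk samples fewer cells of a type and less RNA per cell cannot be told apart. Over all 5 times 1 member lay wholly below its DMSO values (0.962% of all genes) and 0 wholly above (1.31%). Over the 4 times without 192 h the counts were 15 (7.31%) and 2 (5.81%).

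**Figure D2:**
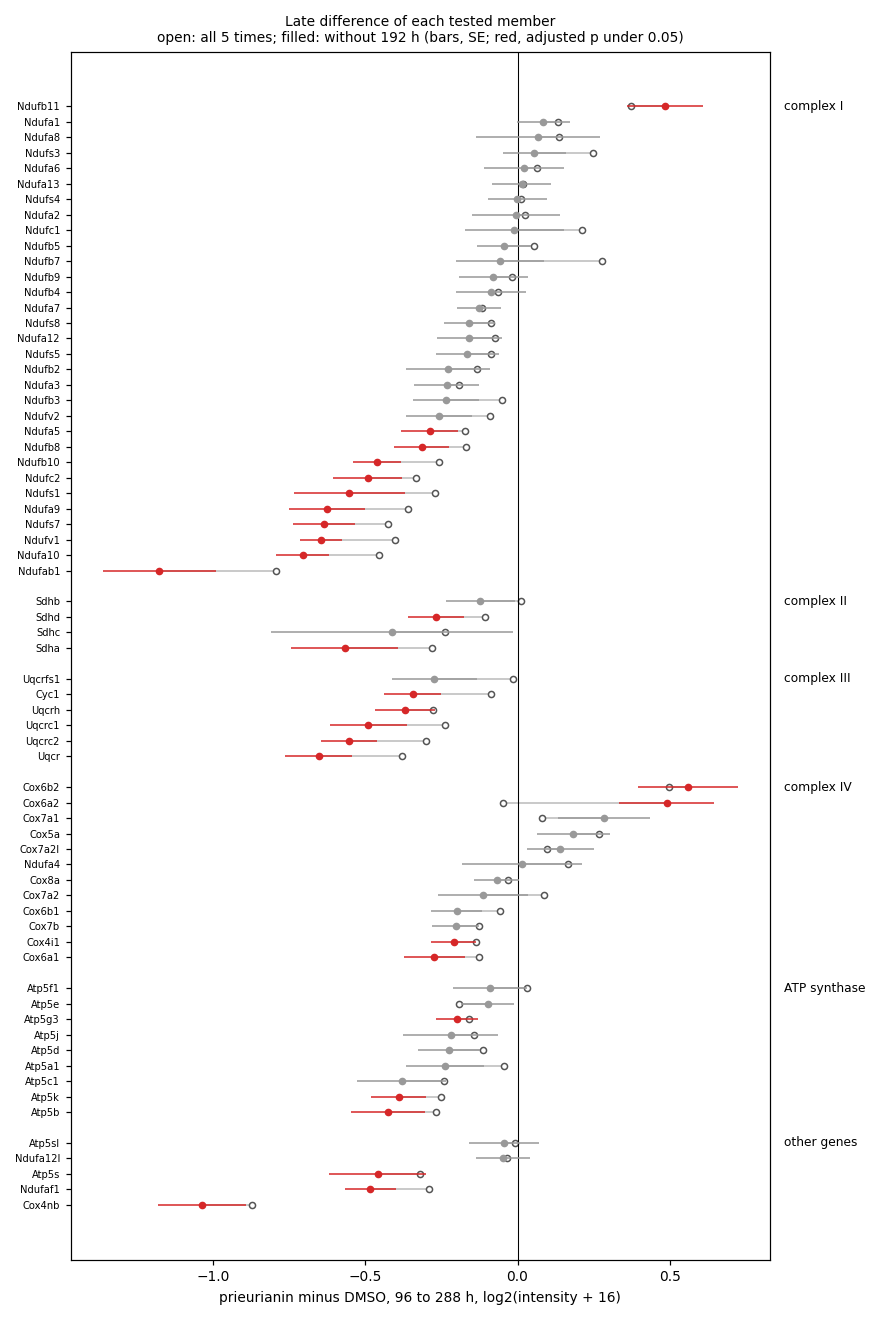
Prieurianin minus DMSO at 96 to 288 h for each of the 67 tested members (rows, by complex), in log2(intensity + 16), with open circles for all 5 times and filled circles for the 4 times without 192 h (bars, SE; red, limma adjusted p under 0.05). Most filled circles lie left of the open ones. The filled circles of complex II, complex III, the ATP synthase and the other genes all lie to the left of 0. Those of complexes I and IV lie on both sides.

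Complex I takes electrons from NADH. Without 192 h the member median was -0.16, with 10 of its 31 tested subunits lower and 1 higher (all genes 13.9% and 11.9%). With 192 h the median was -0.09, with 5 lower and 1 higher (all genes 9.36% and 7.32%). The largest late difference was that of Ndufab1, the mitochondrial acyl carrier protein, which also serves fatty acid and lipoate synthesis. Its intensities at 96, 144, 192, 240 and 288 h were 757, 682, 454, 584 and 566 in DMSO cells and 363, 281, 767, 376 and 148 in prieurianin cells. Prieurianin lay below every DMSO value except at 192 h, where it was above all of them. Ndufab1 was 2.26-fold lower without 192 h (-1.18 ± 0.19, limma adjusted p = 1.5e-05) and 1.73-fold lower with it (-0.79 ± 0.22, 0.0124). Its other probe gave -1.61 and -1.15.

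Ndufa10 had DMSO intensities of 16154, 19102, 13807, 14501 and 14448, and prieurianin intensities of 10474, 10992, 20213, 8930 and 8870. The groups did not overlap outside 192 h. It was 1.63-fold lower without that time (-0.71 ± 0.09, adjusted p = 3.31e-07) and 1.37-fold lower with it (-0.45 ± 0.12, 0.0107), and its other probe gave -0.97 and -0.63. Ndufs1, the large iron-sulphur subunit of the electron input module, was called without 192 h only (-0.55 ± 0.18, adjusted p = 0.0237, against -0.27 ± 0.20, 0.395). Of the other members of that module, chosen here by their values, Ndufv1, which binds NADH and flavin, was lower by 0.64 ± 0.07 without 192 h (adjusted p = 2.3e-08) and by 0.40 ± 0.11 with it (0.0103), while Ndufv2 was not called (-0.26 ± 0.11 without 192 h and -0.09 ± 0.12 with it). Ndufs7, an iron-sulphur subunit next to the ubiquinone site, was lower by 0.63 ± 0.10 (adjusted p = 1.69e-05) and by 0.42 ± 0.12 (0.0145).

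Ndufb11 went the other way. In DMSO cells it was 371, 391, 444, 470 and 454 at the late times, and in prieurianin cells 605, 698, 419, 506 and 581. Only the 192 h value fell within the DMSO range. The difference was 0.49 ± 0.12 without 192 h (adjusted p = 0.00389) and 0.37 ± 0.12 with it (0.029), and it was not called under median centring or the values as deposited.

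Complex II oxidises succinate. Its flavoprotein Sdha had late DMSO intensities of 5733, 5470, 4281, 6172 and 4806, and prieurianin intensities of 4762, 4139, 7846, 3086 and 3154. Prieurianin was lower at 4 of 5 times and highest of all arrays at 192 h. Sdha was 1.48-fold lower without 192 h (-0.57 ± 0.18, limma adjusted p = 0.0157) and was not called with it (-0.28 ± 0.19, 0.339). Against untreated cells, with all 5 times, prieurianin was 0.73 ± 0.19 higher (limma adjusted p = 0.00531) and DMSO 1.01 ± 0.19 higher. The prieurianin mean thus lay between those of the 2 control arms. The call against untreated cells was lost under median centring and under the values as deposited. Sdhd, a membrane anchor, was called without 192 h only (-0.27 ± 0.09, 0.0293, against -0.11 ± 0.10, 0.525). That call was lost under 2 of 4 alternative settings. Sdhc (-0.41 ± 0.40, 0.494) and the iron-sulphur subunit Sdhb (-0.12 ± 0.11, 0.468) did not pass in either case.

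Complex III showed the lowest median of the 5 complexes, -0.43 without 192 h, with 5 of 6 subunits called lower (all genes 13.9%). With 192 h the median was -0.26, with 1 called lower (all genes 9.36%). Uqcrc2, a core protein, had DMSO intensities of 21614, 26685, 20393, 25775 and 21026, and prieurianin intensities of 18589, 16903, 33305, 14109 and 15184. Outside 192 h the prieurianin values lay below all DMSO values, and at 192 h above. It was 1.47-fold lower without that time (-0.55 ± 0.09, limma adjusted p = 3.15e-05) and not called with it (-0.30 ± 0.12, 0.0948). Uqcr, the smallest subunit (now Uqcr11), was 1.57-fold lower without 192 h (-0.65 ± 0.11, 4.26e-05) and not called with it (-0.38 ± 0.14, 0.0617). Cyc1 had DMSO intensities of 19796, 24054, 15958, 15977 and 16448, and prieurianin intensities of 13807, 15999, 30740, 14834 and 14700. The groups overlapped slightly even without 192 h. Cyc1 was then called (-0.34 ± 0.09, 0.0065), and it was not with all times (-0.09 ± 0.13, 0.711). Uqcrfs1 was not called in either case (-0.27 ± 0.14, 0.159, and -0.02 ± 0.16, 0.966).

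**Figure D3:**
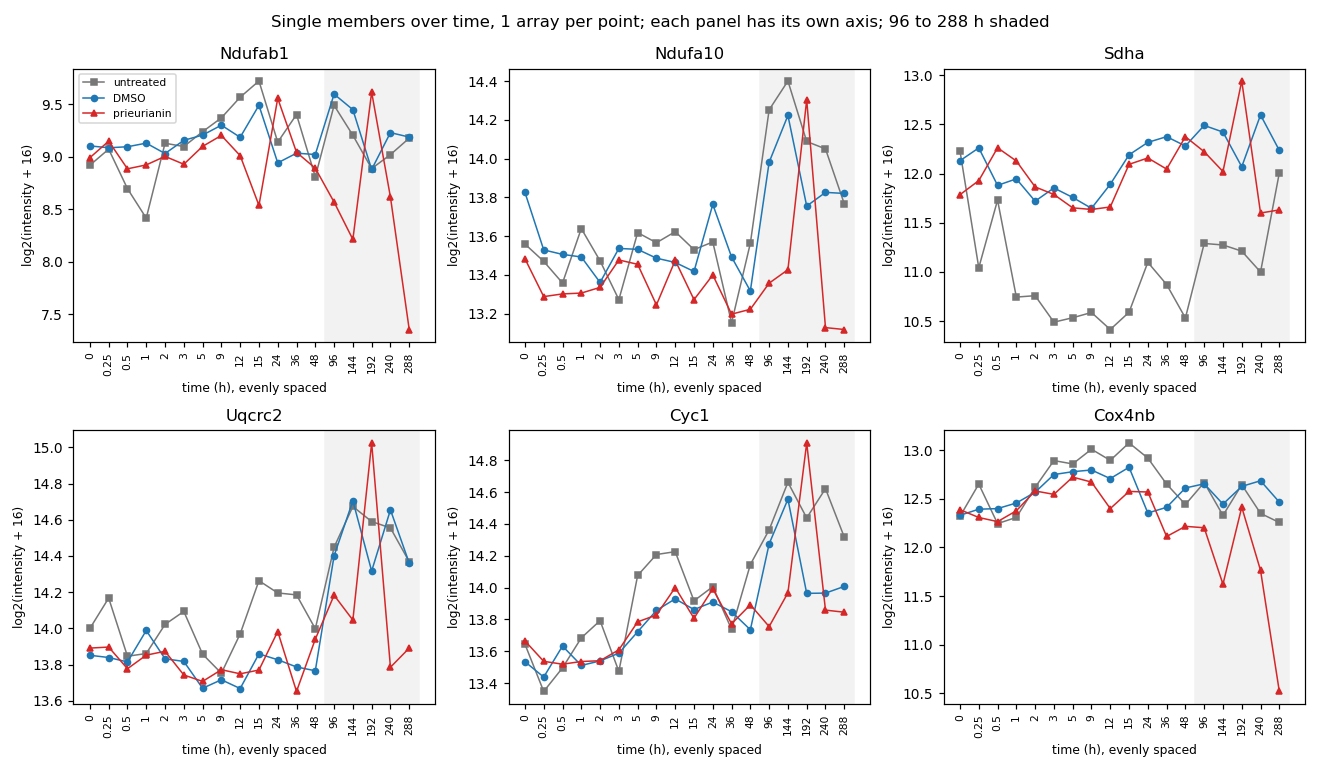
Log2(intensity + 16) of Ndufab1, Ndufa10, Sdha, Uqcrc2, Cyc1 and Cox4nb (1 panel each with its own axis) at 18 times in untreated (grey squares), DMSO (blue circles) and prieurianin cells (red triangles), 1 array per point. In the shaded late window prieurianin lay below DMSO at 96, 144, 240 and 288 h in each panel, and above it at 192 h in all but Cox4nb.

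Complex IV, cytochrome c oxidase, showed no common direction over its 12 genes, which pool ubiquitous subunits with tissue isoforms and Cox7a2l. Without 192 h the member median was -0.03, with 2 of 12 lower and 2 higher (all genes 13.9% and 11.9%). Both called higher, Cox6b2 and Cox6a2, were tissue isoforms, and both called lower were ubiquitous. With 192 h the median was 0.02, with 0 lower and 1 higher (all genes 9.36% and 7.32%). The ubiquitous Cox6a1 (-0.27 ± 0.10, limma adjusted p = 0.0416) and Cox4i1 (-0.21 ± 0.08, 0.0376) were called lower without 192 h only (with it -0.13 ± 0.10, 0.448, and -0.14 ± 0.07, 0.214). Cox4i1 had 3 saturated arrays in all. Cox6b2, the testis isoform of subunit VIb, had late intensities of 801, 526, 922, 643 and 770 in DMSO cells and 1155, 873, 1100, 1019 and 987 in prieurianin cells. Prieurianin was above DMSO at 5 of 5 times, with overlapping ranges. The difference was 0.50 ± 0.15 with all times (adjusted p = 0.0187) and 0.56 ± 0.17 without 192 h (0.0116). With all times it was not called with the values as deposited (0.12) or without 144 h, 240 h or 288 h (0.0699, 0.0904 and 0.0542). The ubiquitous Cox6b1 was at -0.20 ± 0.08 (0.0762) without 192 h and -0.06 ± 0.10 (0.741) with it. In untreated cells Cox6b2 was 976, 926, 946, 1026 and 892, within the prieurianin range.

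The ATP synthase makes ATP from the proton gradient. Without 192 h the member median was -0.23, with 3 of 9 subunits called lower and 0 higher (all genes 13.9% and 11.9%). Of these 3, Atp5b and Atp5g3 had saturated arrays and Atp5k had none. With 192 h 0 were called (member median -0.16). Atp5b had late intensities of 58154, 61501, 50956, 65490 and 52444 in DMSO cells, 1 of them saturated, and 42219, 43924, 65488, 43110 and 47118 in prieurianin cells, where the 192 h value was saturated. Outside 192 h the groups did not overlap. With saturated values taken as read, the difference was -0.43 ± 0.12 without 192 h (limma adjusted p = 0.00902) and -0.27 ± 0.12 with it (0.13), so neither is exact. Without 192 h Atp5b was not called when saturated values were left out (-0.37, adjusted p = 0.19) or under median centring (-0.52, 0.055). Atp5k, subunit e of the membrane sector, was called without 192 h only (-0.39 ± 0.09, 0.00163, against -0.25 ± 0.10, 0.0791). Atp5g3, a c-ring subunit, was saturated on all 5 late DMSO arrays and on 2 of the 5 late prieurianin arrays, so no fold is given. As read, it was called lower without 192 h (adjusted p = 0.0343), a call lost under each of the 3 other settings that gave it a value, and not with all times (0.0932). Its prieurianin values were 65304, 61079, 65487, 61079 and 43590, the 288 h array being the lowest.

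Among the genes with matching names that are not subunits, Cox4nb, now Emc8 of the endoplasmic reticulum membrane complex and unrelated to cytochrome oxidase, stood out. It was at 6434, 5564, 6316, 6576 and 5644 in DMSO cells and at 4698, 3135, 5446, 3462 and 1451 in prieurianin cells. These ranges did not overlap even with 192 h, and Cox4nb was the 1 tested member wholly below DMSO at all 5 times. It was 1.83-fold lower with all times (-0.87 ± 0.14, limma adjusted p = 6.79e-05) and 2.05-fold lower without 192 h (-1.04 ± 0.15, 2.58e-06). Its difference in the late window exceeded that at 5 to 48 h (-0.17 ± 0.12) by a test of the change itself. The assembly factor Ndufaf1 (-0.48 ± 0.08, adjusted p = 5.06e-05) and Atp5s (-0.46 ± 0.16, 0.0328), now Dmac2l, were called lower without 192 h only (with it -0.29 ± 0.11, 0.0542, and -0.32 ± 0.15, 0.143).

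The change of the prieurianin minus DMSO difference from 5 to 48 h to 96 to 288 h was called for 1 member with all times, Cox4nb (-0.70), where 3.88% of all genes were called lower and 2.86% higher. Without 192 h 11 members were called lower and 1 higher (all genes 9.14% and 6.64%). The 11 held 3 of 6 complex III subunits (Uqcrc2 -0.59 ± 0.12, Uqcr -0.56 ± 0.14 and Cyc1 -0.37 ± 0.12) and 6 of 31 complex I subunits, and the 1 higher was Ndufb11 (0.49 ± 0.16).

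Set against untreated cells, which share the prieurianin arrays with the comparison above, prieurianin at 96 to 288 h had 13 members lower and 4 higher (all genes 10.5% and 11.4%), with a median of -0.10 against -0.01. The 4 higher were Sdha (0.73), Atp5j (0.44), Atp5f1 (0.34) and Ndufs4 (0.27). Under median centring the split was 0 higher and 2 lower, and under the values as deposited 0 and 17. Without 192 h 25 were lower and 3 higher (all genes 14.2% and 14.3%), with a median of -0.21 against 0.00. Without 96 h 10 members were called, without 144 h or 240 h 5 and without 288 h 8. The complex III median was -0.33 with all times and -0.53 without 192 h, when 5 of 6 subunits were lower. Ndufa10 (-0.86 ± 0.09, limma adjusted p = 1e-08), Ndufab1 (-1.03 ± 0.19, 7.8e-05), Cyc1 (-0.63 ± 0.09, 5.6e-06) and Uqcrc2 (-0.53 ± 0.09, 4.6e-05) were among the 25, and with all times they were at -0.65, -0.68, -0.41 and -0.34, all called. Atp5b was also among the 25, but 4 of its 5 late untreated arrays were saturated and no size is given. Between the prieurianin and untreated courses 0 members were called by limma with all times, 7 having an unadjusted p under 0.05 (all genes 0.414% higher and 0.18% lower), and without 192 h 1 was higher and 5 lower (all genes 1.73% and 2.13%).

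A few members separated untreated cells from both treated arms from early on. At 0.25 to 3 h, 7 members were higher and 0 lower with DMSO than in untreated cells (all genes 3.13% and 0.407%), and 6 were higher and 2 lower with prieurianin (all genes 4.16% and 1.77%). At 5 to 48 h prieurianin had 7 higher and 14 lower (all genes 13% and 15.5%). Sdha stood at 4784 in untreated, 4468 in DMSO and 3514 in prieurianin cells at 0 h. From 1 to 48 h its untreated values lay between 1349 and 2176, while at 5 to 48 h DMSO cells had 3190 to 5295 and prieurianin cells 3164 to 5293. The untreated values lay below both treated ranges throughout that window. At 5 to 48 h Sdha was 1.40 ± 0.16 higher with DMSO (limma adjusted p = 1.7e-07) and 1.28 higher with prieurianin (4.01e-07). At 96 to 288 h the DMSO difference was 1.01 ± 0.19 (0.002), and it was not called under median centring (0.0639) or the values as deposited (0.0674).

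Ndufs1 showed the same order. Its untreated values at 5 to 48 h ran from 500 to 918 (median 615), its DMSO values from 1476 to 2539 (median 1939) and its prieurianin values from 1177 to 1657 (median 1426). The untreated group did not overlap the others. It was 1.58 ± 0.17 higher with DMSO (adjusted p = 8.3e-08) and 1.11 higher with prieurianin (9.96e-06). Atp5j had untreated values of 3481 to 5670 against 7861 to 12023 with DMSO, and was 1.13 ± 0.12 higher (6.2e-08). These 3 differences from DMSO were called under median centring and the values as deposited as well.

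At 5 to 48 h DMSO cells differed from untreated cells at 22 members, 13 higher and 9 lower (all genes 9.47% and 10.8%), with a median of 0.00 against -0.03. Under median centring the split was 3 higher and 12 lower, and under the values as deposited 8 and 9. The 9 lower included Cox6a1 (-0.50 ± 0.09, adjusted p = 8.3e-05) and Ndufb11 (-0.42 ± 0.10, 0.0029). At 96 to 288 h 3 were higher (Sdha, Atp5j and Ndufc2) and 1 lower (Ndufb7), where 3.14% and 0.508% of all genes were called. Under median centring and the values as deposited 0 were called, and without 144 h or 240 h 1. Without 192 h 4 were higher and 0 lower (all genes 1.98% and 0.211%).

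**Figure D4:**
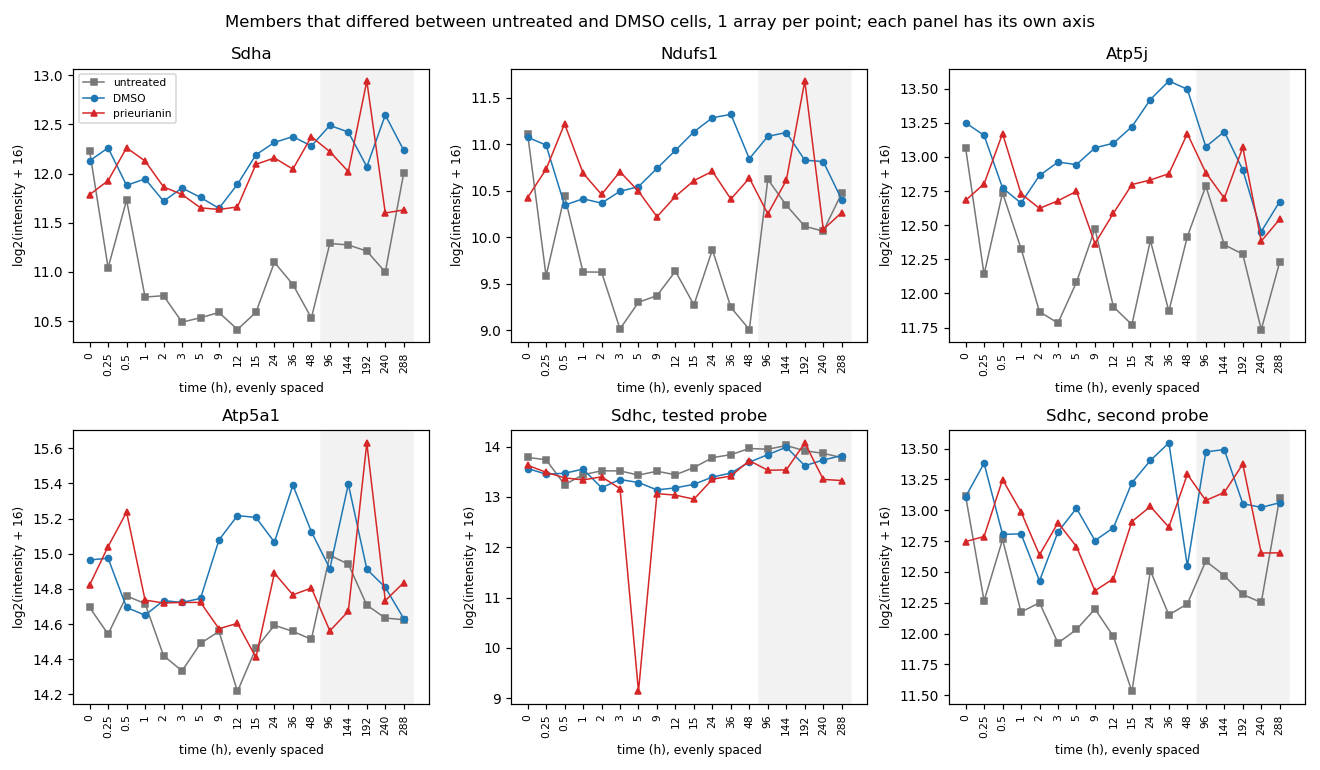
Log2(intensity + 16) of Sdha, Ndufs1, Atp5j, Atp5a1 and both Sdhc probes (1 panel each with its own axis) at 18 times in untreated (grey squares), DMSO (blue circles) and prieurianin cells (red triangles), 1 array per point. Untreated cells lay lowest for Sdha, Ndufs1 and the second Sdhc probe at 5 to 48 h, but not for the tested Sdhc probe, whose single low value is the prieurianin array at 5 h.

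Of the 11 members with a pair of probes, some pairs gave different answers for this comparison. At 5 to 48 h DMSO minus untreated was 1.87 by the dimmer probe of Ndufc1, a small complex I subunit, and 0.00 by its tested probe. For Sdhc it was 0.96 by the dimmer probe and -0.31 by the tested one. The 2 probes of Ndufa5, both bright (mean log2 14.94 and 14.72), also differed in sign, with 0.22 by the tested probe and -0.18 by the other. For the late difference between prieurianin and DMSO without 192 h the probes of 8 members had the same sign. They differed in sign for Ndufc1 (-0.01 and 0.19), Ndufs4 (0.00 and 0.19) and Atp5c1, the F1 gamma subunit (-0.38 by the tested probe and 0.41 by the dim one). Which transcripts each probe detects was not tested.

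The isoforms of complex IV that mark contractile or brown fat tissue differed from each other in their course over time. Cox7a1, the heart and muscle isoform of subunit VIIa, had untreated values of 101, 126 and 137 at 0 to 3 h (lowest, median, highest) and 187, 200, 446, 426 and 619 at the late times. The late values lay above all early ones. Cox7a1 rose 2.61-fold in untreated (1.39 ± 0.24, limma adjusted p = 6.5e-06), 2.48-fold in DMSO (1.31 ± 0.24, 1.84e-05) and 2.72-fold in prieurianin cells (1.44 ± 0.24, 5.38e-06). It did not differ detectably between prieurianin and DMSO at 96 to 288 h (0.08 ± 0.15, adjusted p = 0.778, and without 192 h 0.28 ± 0.15, 0.178).

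Cox6a2, the muscle isoform of subunit VIa, first declined and then returned. In untreated cells it was at 406 at the start and at 91 by 48 h, and the 5 late values were 80, 82, 532, 621 and 431. In DMSO cells the values were 411, 96, 62, 104, 658, 348 and 354 at the same times, and in prieurianin cells 364, 81, 115, 126, 131, 374 and 658. The 192 h prieurianin value stayed near those of 96 and 144 h while the other arms had already returned. Without 192 h the late difference from DMSO was 0.49 ± 0.16 (limma adjusted p = 0.0189), and with it -0.05 ± 0.24 (0.93).

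Cox8b, the muscle and brown fat isoform of subunit VIII, was too dim to be tested. Up to 144 h it was at most 49 in every arm. At 192, 240 and 288 h it was 220, 422 and 311 in untreated cells and 188, 380 and 376 in DMSO cells, but 1037, 11 and 5 in prieurianin cells. The prieurianin values lay above both other arms at the first of these times and below both at the others. When dim genes were kept in the fit, its late difference from DMSO was -1.38 ± 0.51 with all times (limma adjusted p = 0.0727) and -2.32 ± 0.40 without 192 h (6.46e-05), the latter a setting added after seeing the data. Cox4i2, the isoform of lung and hypoxic cells, was at most 4 at every late time, and Cox8c, the testis isoform, at most 65. Ndufa4, a complex IV subunit despite its name, fell in DMSO cells (-0.61 ± 0.18, 0.00585) and prieurianin cells (-0.46 ± 0.18, 0.0432), and its untreated change was -0.33 ± 0.18 (0.154).

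**Figure D5:**
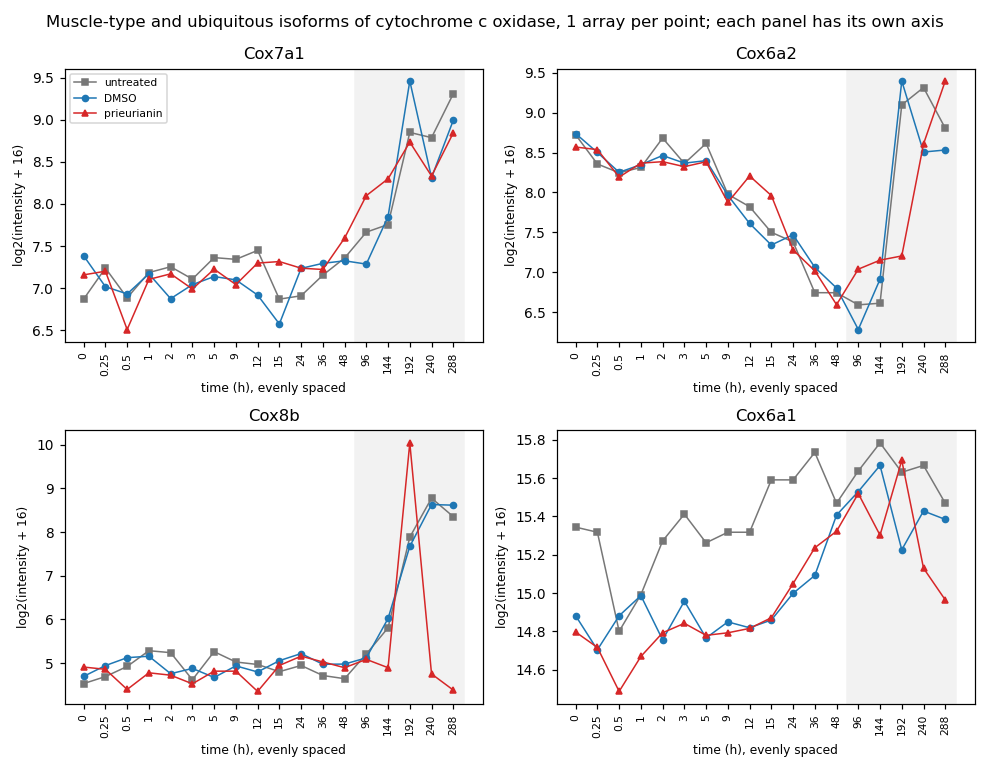
Log2(intensity + 16) of Cox7a1, Cox6a2, Cox8b and Cox6a1 (1 panel each with its own axis) at 18 times in untreated (grey squares), DMSO (blue circles) and prieurianin cells (red triangles), 1 array per point. Cox8b appeared at 192 to 288 h in untreated and DMSO cells (188 to 422) and in prieurianin cells only on the 192 h array (1037).

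Saturation limits 5 members. Probes within 50 units of an array's highest value were counted as saturated, which applied to Atp5g3 on 43 arrays, Cox8a on 22, Atp5b on 9, Cox4i1 on 3 and Cox7b on 2. Cox8a, the ubiquitous isoform of subunit VIII, was saturated on all 5 late untreated arrays, and Atp5g3 on all 7 untreated arrays at 5 to 48 h. For these groups only a bound on the level exists. With saturated values left out and without 192 h, 65 members had a late prieurianin minus DMSO difference. Of these, 22 were called lower and 3 higher (all genes 13.8% and 11.9%).

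Genes that serve the chain were counted in the same window. Without 192 h, of 29 assembly factors 10 were lower and 0 higher with prieurianin than with DMSO (median -0.18), among them Atpaf2 (-0.84), which builds the ATP synthase, and Cox15 (-0.77), which makes haem a. Of 16 ubiquinone synthesis, electron transfer flavoprotein and carrier genes, 8 were lower and 0 higher (median -0.27), among them Etfb (-0.80) and Coq9 (-0.70). Of 71 genes of the mitochondrial ribosome, 24 were lower and 2 higher (median -0.18), and of 33 with a cytosolic ribosome symbol, a match that includes some kinases, 2 were lower and 6 higher (median 0.11). Of 14 genes of mitochondrial mass and import, 3 were lower and 1 higher (median -0.14). All genes had a median of 0.02 here, with 13.9% lower and 11.9% higher. With all 5 times the counts were smaller. They were 4 lower and 2 higher for the assembly factors (median -0.13), 2 and 0 for the ubiquinone, flavoprotein and carrier genes (-0.20), 12 and 2 for the mitochondrial ribosome (-0.09), 1 and 0 for mass and import (-0.06) and 2 and 4 for the cytosolic ribosome (0.06), where 9.36% of all genes were lower and 7.32% higher.

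Of 15 regulators of mitochondrial gene expression, 5 were lower and 2 higher without 192 h (all genes 13.9% and 11.9%). Those named here were chosen by their values. Ppargc1b, a coactivator of mitochondrial genes, was lower by 1.52 and Esrra, the oestrogen-related receptor alpha, by 0.38, both called, and with all times the differences were -0.93 (called) and -0.23 (not called). Gabpb1 (1.05) and Pprc1 (0.59) were higher. With all times 3 were lower and 2 higher (all genes 9.36% and 7.32%). In the untreated course Ppargc1b rose by 2.19 and Esrra by 0.71.

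Markers of cell types also differed at these times. Of 9 tested white fat cell markers (of 10 listed), 9 were lower without 192 h (median -1.90) and 8 with it (-1.40). Of all genes, 13.9% were lower without 192 h and 9.36% with it. The mean level of the 10 was 12.09 to 12.71 in untreated and 12.09 to 12.78 in DMSO cells at 96 to 288 h. In prieurianin cells it was 11.07, 11.30, 12.90, 9.83 and 9.61 from 96 to 288 h, the 192 h array being the highest of all. Of 5 tested muscle markers (of 9 listed, 8 on the array), 3 were higher (Acta1, Mylpf and Tnnt3) and are named for that reason. The shares of all genes that were higher were 11.9% without 192 h and 7.32% with it. The mean level of the muscle markers was 6.38 to 6.59 in DMSO and 6.92 to 7.57 in prieurianin cells. The muscle determination factor Myod1 was at 22.1 to 44.7 in late prieurianin cells. Of 8 brown fat markers 2 were tested, and the late values of Ucp1 were at most 25.1 in every arm. The part of these cell states in the members' differences was not tested.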

How the data were processed

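The deposited values were linear probe intensities from a single-colour mouse oligonucleotide array with Cy5-labelled amplified RNA, per the labels' protocols; their unit was judged from the values (-83 to 65497). Scanner, scaling and background subtraction are not given in the sources used here. Intensities were quantile normalised, floored at 0 and taken as log2(value + 16), and each gene was tested through its brightest probe if its mean log2 exceeded 6.07. Arms were compared with limma 3.58.1 (R 4.3.3), time as a factor, in windows of 5, 7 and 5 times (28 residual degrees of freedom); courses were compared in a second fit of all 54 arrays (45). Adjusted p-values are Benjamini-Hochberg over 12792 genes. Named members were, in each complex, the 2 with the largest late prieurianin minus DMSO difference and the 2 with the largest untreated change, any called over 2-fold, listed isoforms, the Sdh genes, Cycs and Cyc1, and every saturated member; others named were chosen after their values were seen. Members and lists were chosen with earlier results of these data known, and the settings without 192 h combined with others were added after seeing the data. The fits were tested on simulated data. Motifs were searched in RefSeq promoter windows.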

Additional observations from a re-analysis of the deposited data

Results flagged for a closer look

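Means of the complexes and of all members by arm and window (54 groups) and the late values of named members, 162 groups in all, were checked for a single array far from the others of its group, and 16 had one. Chance would flag about 1 in 20 groups of independent replicates. These groups hold different times, share members with each other and include saturated values, so the 16 cannot be set against that rate. In 7 of the 16 the array was prieurianin at 192 h, which was already known to stand apart. It was the highest of its 5 late arrays for the complex II mean (13.73, others 12.83 to 13.06) and for Cyc1 (14.91, others 13.75 to 13.97), Ndufa10 (14.30, others 13.12 to 13.43), Ndufaf1 (12.36, others 11.31 to 11.48), Sdhc (14.08, others 13.33 to 13.54), Atp5b (16, saturated, others 15.37 to 15.52) and Cox8b (10.04, others 4.38 to 5.09), all in log2(intensity + 16).

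At 5 to 48 h the prieurianin complex II mean was low at 5 h (11.86, others 12.81 to 13.30), through the single Sdhc value, the prieurianin complex IV mean was low at 9 h (12.90, others 13.05 to 13.09) and the untreated complex III mean was high at 48 h (13.33, others 13.15 to 13.23). Late single values apart from their group were untreated Sdha at 288 h (12.01, others 11 to 11.29), untreated Sdhd at 240 h (13.32, others 13.50 to 13.57) and prieurianin Atp5g3 at 288 h (15.41, others 15.90 to 16). Near saturation, untreated Atp5b at 288 h (15.83), untreated Atp5g3 at 192 h (15.98) and DMSO Cox8a at 192 h (15.89) lay below others at or near 16.

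The prieurianin minus DMSO difference of Cox4nb was larger at 96 to 288 h than at 5 to 48 h, by -0.70 in a limma test of the change (adjusted p = 0.0223).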

How the results depend on the processing

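Counts of called members between arms moved with the scaling and with single times. Prieurianin minus DMSO at 5 to 48 h had 5 called members, 0 with median centring, 1 each with the values as deposited, no replicate block (time, which arrays of the arms share, left out of the fit) or only the arms compared, and 1 to 7 when 1 time was left out. Its median of -0.108 turned to 0.053 with median centring. At 96 to 288 h the count was 9, 3 with median centring or the values as deposited, 4 with only the arms compared, and 1 to 28 without 1 time. Against untreated cells 17 became 2 with median centring, 7 without the replicate block, 8 with only the arms compared, and 5 to 28 without 1 time. DMSO minus untreated had 4, then 0 with median centring or as deposited, 2 without the replicate block, 7 with only the arms compared, and 1 to 5 without 1 time. The untreated course had 25, and 12 as deposited. The prieurianin course had 25, then 9 with median centring, 11 as deposited and 16 with only that arm. The difference of the prieurianin and DMSO courses had 0, then 1 with the replicate block (time as a factor), 2 with time as a random block, and 0 to 8 without 1 time. Without 192 h, median centring took 28 late calls to 13 and 18 prieurianin course calls to 7. The late member median of -0.210 became -0.308, or -0.314 as deposited. That of all genes went from 0.017 to -0.054, or to -0.061 as deposited. Shares of all genes called moved with the scaling too, so counts given without that share do not compare members with all genes. The cause of these shifts was not tested. Of the 9 members called late, Cox4nb was called under all 30 alternatives and no called member turned sign. The number of arrays and saturation limit the precision.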
